A study of Mus musculus with 2 samples.

Results

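The mouse proteasome genes described here were the rows of the transcriptome matrix whose symbols begin with Psma, Psmb, Psmc, Psmd or Psme followed by a digit, and 46 of the 31192 genes met that rule after 4 rows named as pseudogenes had been left out. Of these, 43 encode known subunits, activators or assembly factors, and 3 (Psmc3ip, Psme2b and Psme3ip1) share the letters without being known subunits. All but 1 reached the minimum of 50 counts over the kept cells. The exception was the thymic subunit gene Psmb11, with 7 counts.

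The cells came from hearts of Cdh5-CreERT2;REFLEX mice that had received tamoxifen and had undergone transverse aortic constriction (TAC), a surgical narrowing of the aorta that loads the left ventricle. Cdh5-CreERT2 is a tamoxifen-inducible Cre recombinase driven by the promoter of an endothelial cadherin gene, and REFLEX is the reporter whose GFP, by the series record, marks cells that interact. CD45-positive and CD45-negative cells, each GFP-positive or GFP-negative, were sorted and pooled into 1 transcriptome library and 1 hashtag library. All cells therefore shared genotype, tamoxifen and operation, and no sham-operated or untreated heart is among the samples. The sources used here do not state the number, age and sex of the mice or the time after operation.

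Of 878 cells, 857 were kept, with a median of 77171 counts per cell (range 28407 to 706332). Clustering without the proteasome genes gave 274 neutrophil-like, 183 monocyte-like, 48 macrophage-like, 32 conventional dendritic-like, 163 B cell-like, 99 T cell-like and 27 NK cell-like cells, and 31 cells stayed unnamed. Median counts per cell lay between 64370 in neutrophil-like cells and 264492 in macrophage-like cells, and median mitochondrial shares of the 7 named classes between 1.64% and 3.30%. Each named class had between 6 and 11 markers of its own list at 50 CPM (counts scaled to a total of 1000000) or more and at least 2 times the level of other cells, while the fibroblast, erythroid, epicardial, glial, smooth muscle and lymphatic endothelial lists had none in any class. Of the blood vascular endothelial list B cell-like cells had 1 marker and the other classes 0. Some classes also reached markers of other leukocyte or blood cell lists. Macrophage-like cells had 3 of 12 monocyte and 2 of 3 platelet markers, and NK cell-like cells 2 monocyte and 2 T cell markers. B cell-like and T cell-like cells had 2 conventional dendritic markers each. NK cell-like cells also had 1 marker each of the endocardial, pericyte, mast cell and innate lymphoid type 2 lists. No other class had an endocardial or pericyte marker. Conventional dendritic-like cells had 1 marker each of the NK cell, plasmacytoid dendritic and innate lymphoid type 2 lists. Of the cardiomyocyte list neutrophil-like cells had 1 marker. The authors' tag name in each cell name is tied to no sorted fraction by any source used here, so GFP-positive cells were not compared with GFP-negative cells. The raw count of a cell's own tag was the highest in 331 of 331 cells named A951 and in 128 of 134 named A952, but in only 14 of 114 named A953 and 17 of 247 named A965. Values by tag name below describe cells so named and nothing more.

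The proteasome degrades proteins that carry ubiquitin. Its barrel, the 20S core, has outer rings of alpha subunits and inner rings of beta subunits, and proteolysis is carried out by the beta5, beta1 and beta2 subunits, which Psmb5, Psmb6 and Psmb7 encode. In leukocytes and after interferon gamma these are exchanged for Psmb8, Psmb9 and Psmb10, the immunoproteasome subunits, which change the peptides offered to MHC class I. The 19S cap recognises, unfolds and feeds in ubiquitinated proteins, while PA28, made of the products of Psme1 and Psme2, is an interferon-induced cap that opens the core without ubiquitin.

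The immunoproteasome genes and their constitutive partners are known to answer to different transcription factors. The 250 bases before the annotated start are shown for 4 of them, Psmb8 with Psmb5 (beta5) and Psmb9 with Psmb6 (beta1). The beta2 genes Psmb10 and Psmb7, also compared below, are not shown. Neither was among the genes in which a pattern named here was found. Which pattern is marked was set gene by gene, and each gene shown holds the one marked. The sequences are from RefSeq on the GRCm38.p6 build. Capitals mark TTCNNNGAA, the core of a STAT site, in Psmb8 (chr17:34197945-34198194, plus strand), GGG and CC with 5 bases between them, a loose NF-kB pattern, in Psmb9 (chr17:34187331-34187580, minus strand), and TGACNNNGC, the core of the antioxidant response element, in Psmb5 (chr14:54617996-54618245, minus strand) and Psmb6 (chr11:70525107-70525356, plus strand).
Psmb8: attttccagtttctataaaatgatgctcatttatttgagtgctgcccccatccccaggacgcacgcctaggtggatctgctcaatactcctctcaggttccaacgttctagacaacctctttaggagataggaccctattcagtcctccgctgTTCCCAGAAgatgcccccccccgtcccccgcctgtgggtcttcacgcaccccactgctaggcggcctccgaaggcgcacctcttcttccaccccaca
Psmb9: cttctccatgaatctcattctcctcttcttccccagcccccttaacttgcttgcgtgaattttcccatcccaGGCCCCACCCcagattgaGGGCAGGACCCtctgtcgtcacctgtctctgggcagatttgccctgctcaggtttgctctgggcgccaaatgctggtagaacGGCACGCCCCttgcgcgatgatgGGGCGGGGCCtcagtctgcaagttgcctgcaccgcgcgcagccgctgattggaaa
Psmb5: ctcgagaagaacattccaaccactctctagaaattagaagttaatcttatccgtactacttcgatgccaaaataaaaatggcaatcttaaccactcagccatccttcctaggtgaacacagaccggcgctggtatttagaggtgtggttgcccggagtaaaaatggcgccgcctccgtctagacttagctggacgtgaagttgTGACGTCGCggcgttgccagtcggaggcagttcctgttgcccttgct
Psmb6: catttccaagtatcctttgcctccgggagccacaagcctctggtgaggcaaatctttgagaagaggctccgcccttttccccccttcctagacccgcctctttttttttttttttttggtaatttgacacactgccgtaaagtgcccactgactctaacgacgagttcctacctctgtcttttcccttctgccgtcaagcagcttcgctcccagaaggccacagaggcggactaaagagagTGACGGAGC
Each is written 5′ to 3′ in the direction of its gene, both strands were searched, and overlapping matches run together in Psmb9, which held 5. Psmb6 also held 1 match of the loose NF-kB pattern, not capitalised, and Psmb8 and Psmb5 held 0. The STAT pattern in Psmb8 begins 97 bases before the start, and Psmb8 was the only gene with it among 39 proteasome genes in the table, against 7.02% of all 32851 windows. The antioxidant pattern, which begins 47 bases before the start in Psmb5 and 9 bases before it in Psmb6, also stood in Psmc6, Psmd9 and Psmd12, making 5 of 39 genes, against 10.2% of all windows. The core of an interferon-stimulated response element, GAAA and GAAA with 2 bases between them, stood in Psmb3, Psmd4 and Psmd9 (2.98% of all windows). The loose NF-kB pattern stood in 22 of the 39 genes and in 45.8% of all windows. The Psmb9 window overlaps that of Tap1, a peptide transporter gene read from the opposite strand, by 275 of 300 bases when 50 bases after the start are included. A match is a run of letters and not a shown binding site, and a window without one says nothing of the factor.

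With 1 library there is no replicate of any class, so no test was made. The CPM of a class are its summed counts over its total. The intervals are exact 95% intervals for counting error only, and are too narrow if the deposited counts are reads and not molecules. They also leave out the spread between cells, which was wide. In neutrophil-like cells the 2300 counts of Psmb8 lay in 40.5% of 274 cells, and the 529 counts of Psmb10 in 15.3%. Intervals that do not overlap are therefore no measure of how firmly 2 classes differ. A gene is called higher or lower where its CPM differed by at least 1.5 times from that of all other kept cells, with 1 CPM added to both sides. Levels of different genes are not compared, since their lengths differ and no source states which part of the transcript was read.

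Of the 7 named classes, conventional dendritic-like cells had the highest level of all 3 immunoproteasome genes, although their Psmb10 interval overlapped that of monocyte-like cells. Psmb8, the beta5i subunit, stood at 588 CPM in them (573 to 604), against 223 CPM in all other cells. By class it was 301 CPM in monocyte-like, then 265 in T cell-like, 259 in NK cell-like, 217 in macrophage-like, 146 in B cell-like and 121 in neutrophil-like cells. The intervals of T cell-like and NK cell-like cells overlapped, and every other step in that order was larger than the counting error. For the 3 genes together, the lead of conventional dendritic-like cells lay in the summed counts and not in the median cell. The median cell had 445 CPM in them, against 535 in NK cell-like and 477 in monocyte-like cells. Their upper quartile was 1043 CPM, and 1 of the 32 cells held 16.5% of the counts.

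Psmb9, the beta1i subunit, was 244 CPM in conventional dendritic-like cells (234 to 254), against 110 CPM in all other cells. It followed another order, with 200 CPM in NK cell-like, 120 in T cell-like, 119 in monocyte-like, 117 in neutrophil-like, 98.0 in macrophage-like and 83.2 in B cell-like cells. The T cell-like, monocyte-like and neutrophil-like values could not be told apart by their intervals.

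Psmb10, the beta2i subunit, was 173 CPM in conventional dendritic-like (165 to 182) and 167 CPM in monocyte-like cells (163 to 172), which overlapped. NK cell-like cells had 140 CPM and macrophage-like cells 127 CPM, which also overlapped, followed by 93.9 in T cell-like, 71.7 in B cell-like and 27.8 in neutrophil-like cells. A single conventional dendritic-like cell held 37.0% of that class's Psmb10 counts, and without it the log2 ratio to all other cells was 0.04 in place of 0.63. The level of the class without that cell was 115 CPM, under those of monocyte-like, NK cell-like and macrophage-like cells. Psmb8 and Psmb9 were spread over more dendritic-like cells, whose largest contributors held 15.2% and 12.6%.

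The ratios of the 3 genes lay farthest apart in neutrophil-like cells. Psmb10 was 27.8 CPM there, against 138 CPM in all other cells (log2 ratio -2.27), and Psmb8 was 121 CPM, against 289 CPM (-1.25). Psmb9 was 117 CPM, against 124 CPM (-0.08), and so was the only one of the 3 that was not called lower.

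The constitutive partners were highest in macrophage-like cells, although for Psmb7 the interval overlapped those of NK cell-like and conventional dendritic-like cells. Psmb6, the beta1 subunit, was 261 CPM in macrophage-like cells (253 to 270), against 130 CPM in all other cells. By class it was 229 CPM in conventional dendritic-like, 155 in monocyte-like and 148 in T cell-like cells, then 123 in B cell-like, 89.8 in NK cell-like and 41.9 in neutrophil-like cells. Its span from the lowest to the highest class was thus wider than that of Psmb8, whose lowest class was also the neutrophil-like one.

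Psmb5, the beta5 subunit, was 172 CPM in macrophage-like cells (165 to 179), against 101 CPM in all other cells. Its other levels were 140 CPM in conventional dendritic-like, 135 in monocyte-like, 86.6 in NK cell-like, 82.0 in T cell-like, 74.2 in B cell-like and 58.8 in neutrophil-like cells. Psmb7, the beta2 subunit, was 181 CPM in macrophage-like cells (174 to 188), against 115 CPM in all other cells. The NK cell-like value of Psmb7, 168 CPM (151 to 188), and the conventional dendritic-like value, 166 CPM (158 to 174), could not be told apart from each other, and monocyte-like cells had 143, T cell-like 117, neutrophil-like 73.8 and B cell-like 70.3 CPM. Of the Psmb5 values above 0 only 26.6% were whole numbers, against 98.4% for Psmb6 and 98.2% for Psmb8, so the counts of Psmb5 were more often estimates.

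**Figure D1:**
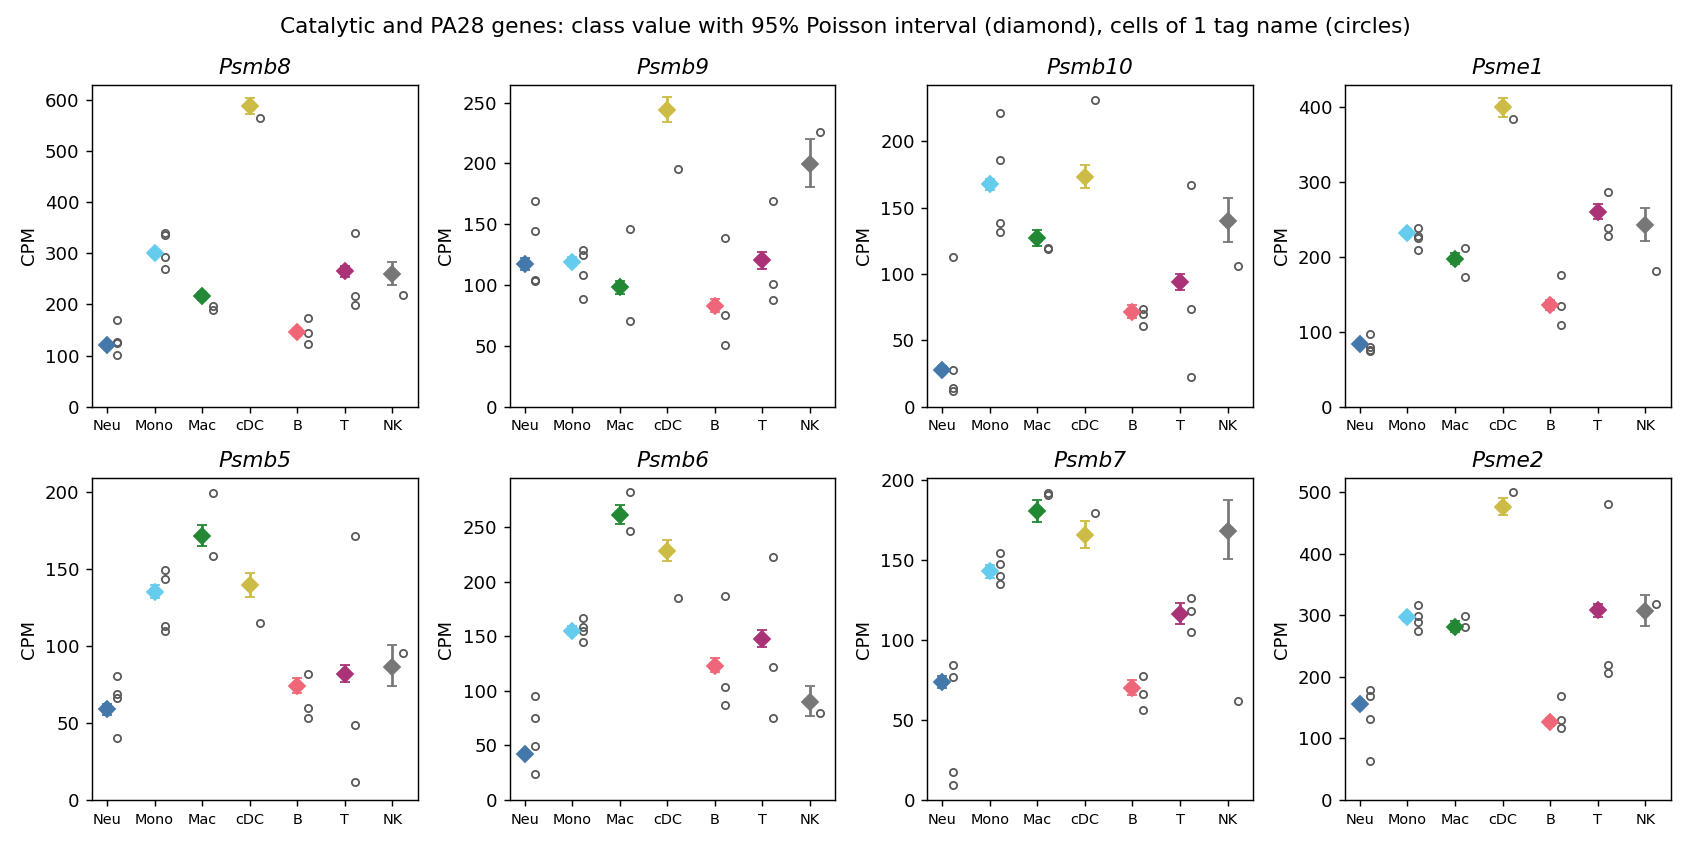
CPM (linear axis) of the 6 catalytic and both PA28 genes in 7 leukocyte classes. Diamonds are classes with 95% Poisson intervals, and circles are the cells of 1 tag name within a class (at least 10 cells). Psmb8, Psmb9, Psme1 and Psme2 are highest in conventional dendritic-like cells (cDC), and Psmb5, Psmb6 and Psmb7 in macrophage-like cells (Mac).

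The share of the immunoproteasome gene in each catalytic pair does not depend on how a class was scaled, and it is used here to compare classes, not the genes of a pair. Over all 3 pairs conventional dendritic-like cells had the highest share of the named classes, 65.3% (64.5 to 66.1), and macrophage-like cells the lowest, 41.8% (41.0 to 42.7). NK cell-like cells had 63.5% (61.2 to 65.7), neutrophil-like cells 60.4% (59.3 to 61.4), T cell-like cells 58.0%, monocyte-like cells 57.6% and B cell-like cells 52.9%. The interval of NK cell-like cells overlapped those of conventional dendritic-like and neutrophil-like cells, as did that of T cell-like cells with that of monocyte-like cells. With each cell weighted alike, conventional dendritic-like cells had 63.8% and NK cell-like cells 63.9%, so the first rank did not hold. The pool of all kept cells had 56.6%, and the 31 unnamed cells had 78.4% (75.8 to 80.9).

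The 3 pairs did not rank the classes alike. In the beta5 pair Psmb8 made up 80.8% of the counts in conventional dendritic-like cells, 76.3% in T cell-like, 74.97% in NK cell-like, 69.0% in monocyte-like, 67.3% in neutrophil-like, 66.3% in B cell-like and 55.8% in macrophage-like cells. In the beta1 pair the Psmb9 share ran from 27.3% in macrophage-like cells to 69.0% in NK cell-like and 73.7% in neutrophil-like cells, with the other 4 classes between 40.3% and 51.7%. One T cell-like cell held 42.4% of the Psmb5 counts of its class. Without it the Psmb8 share of T cell-like cells was 81.4% (79.8 to 82.9), no longer under the 80.8% of conventional dendritic-like cells (79.9 to 81.8), and their Psmb5 level was 50.1 CPM, the lowest of the 7 classes. NK cell-like cells had 80.9% (77.6 to 83.9) in the beta5 pair without their cell with most Psmb5, and 72.2% without that with most Psmb8. In the beta1 pair they had 74.6% (70.4 to 78.5) without their cell with most Psmb6, over the 73.7% of neutrophil-like cells. Without their cell with most Psmb9 they had 64.9%.

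In the beta2 pair the Psmb10 share of neutrophil-like cells was 27.4% (25.4 to 29.4), against 53.9% in monocyte-like cells, the highest class. The remaining classes lay between 41.2% in macrophage-like (39.8 to 42.8) and 51.1% in conventional dendritic-like cells. Without the dendritic-like cell that held 37.0% of the Psmb10 counts, that class had 43.2% (41.2 to 45.3), which overlapped the macrophage-like interval, and NK cell-like cells had 38.7% (34.5 to 42.9) without their cell with most Psmb10 in place of 45.4%. Without their cell with most Psmb7 instead, conventional dendritic-like cells had 54.5% (52.6 to 56.3), over the monocyte-like share of 53.9%, with overlapping intervals. Macrophage-like cells as a whole had the lowest share in the beta5 and the beta1 pair. By tag name this did not hold throughout the beta1 pair. There B cell-like cells named A951 had 21.4%, against 22.2% (A951) and 34.1% (A952) in macrophage-like cells. The low beta2 share of neutrophil-like cells was not shared by all tag names, with 26.2% in cells named A951, 12.3% in A952, 86.4% in A953 and 60.5% in A965. The last 2 values lay over that of the monocyte-like class. In the beta1 pair the Psmb9 share of neutrophil-like cells was 81.4%, 58.1%, 64.0% and 74.4% under the same names. Such spread was not particular to neutrophil-like cells. T cell-like cells named A951, A953 and A965 had 17.4%, 58.6% and 36.9% in the beta2 pair and 94.5%, 66.4% and 81.7% in the beta5 pair. B cell-like cells of these names had 21.4%, 61.4% and 42.2% in the beta1 pair.

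**Figure D2:**
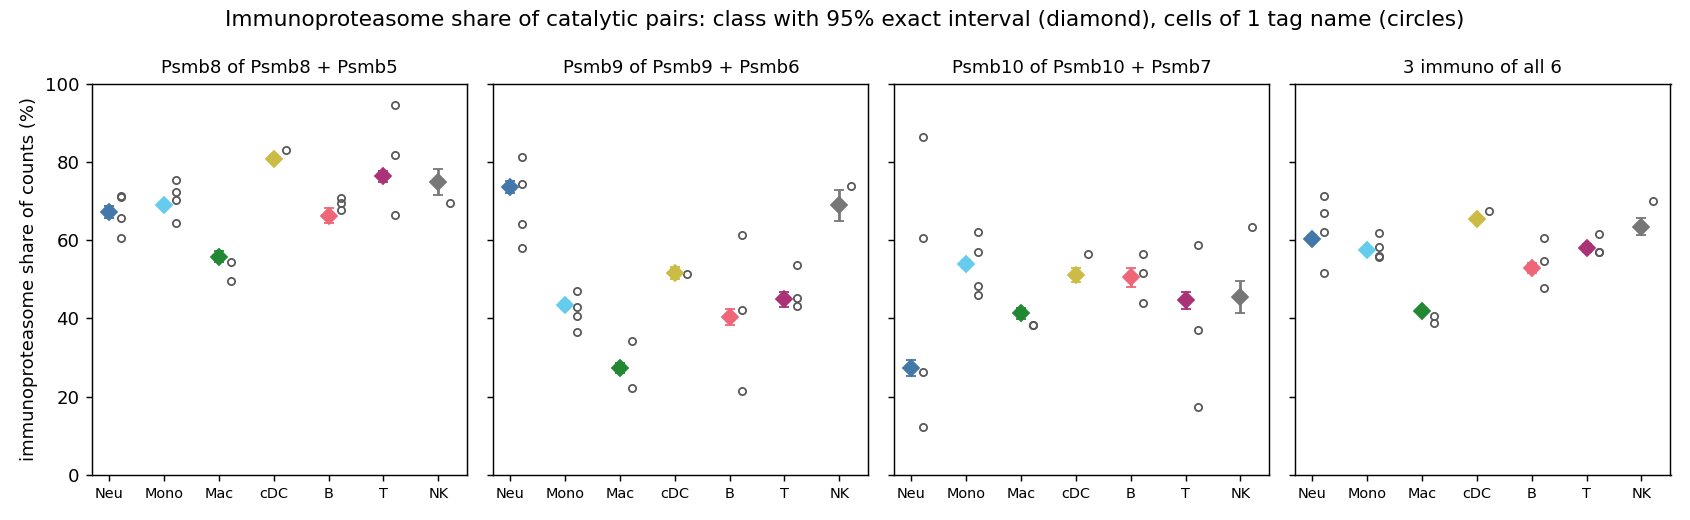
Share of the immunoproteasome gene in the counts of each catalytic pair (percent) by leukocyte class, with exact 95% intervals (diamonds) and the value in the cells of 1 tag name (circles). Neutrophil-like cells (Neu) are highest at the beta1 pair (73.7%) and lowest at the beta2 pair (27.4%), where their values by tag name run from 12.3% to 86.4%, and macrophage-like cells (Mac) are lowest over all 6 genes (41.8%).

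The shares moved with the tag name in some classes. Over all 3 pairs, neutrophil-like cells had 62.1% (A951), 51.7% (A952), 71.3% (A953) and 67.0% (A965), and the Psmb10 level in them was 27.4, 11.9, 112 and 14.1 CPM in the same cells. The A953 value rests on 19 cells and that of A965 on 28, and with 17.7 and 9.24 CPM of Psmb7 these also had less of the beta2 partner than the 77.2 and 84.6 CPM of A951 and A952. B cell-like cells had 47.7% (A951), 60.5% (A953) and 54.5% (A965).

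Monocyte-like cells varied less, between 55.6% and 61.8% over the 4 names, and macrophage-like cells had 38.8% and 40.7% under the 2 names with at least 10 cells. Both macrophage-like values lay under every value of the other classes by tag name. The conventional dendritic-like cells named A952, the only name with at least 10 such cells, had 67.4%. NK cell-like cells named A965, also the only name with at least 10 such cells, had 69.9% (66.9 to 72.8). The part that tag, depth or sorting had in these values was not tested.

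One T cell-like cell weighed on its class. This cell, named A953, had 572539 counts, 5.77% of those of the class, but 14.9% of the proteasome counts of the class, and counts in 4 of the 5 markers of dividing cells. It is the cell described above for Psmb5, and without it the T cell-like share over all 3 pairs was 59.2%, in place of 58.0%. No other class had a cell with more than 9.10% of its proteasome counts.

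Among single cells the classes differed in how often either set was found. With each cell thinned to 25000 counts, Psmb8 was found in 90.6% of conventional dendritic-like cells, 75% of macrophage-like, 74.3% of monocyte-like, 59.3% of NK cell-like, 57.6% of T cell-like, 34.4% of B cell-like and 33.2% of neutrophil-like cells. Without thinning these shares were 93.8%, 83.3%, 81.4%, 66.7%, 61.6%, 38.7% and 40.5% in the same order. All 7 classes are leukocytes, so there was no class that should lack Psmb8, and the share that free RNA alone would give was not measured.

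Thinned neutrophil-like cells held at least 1 of the 3 immunoproteasome genes without any of the 3 partners in 32.8% of cells (27.3 to 38.8) and both sets in 19.3%. A further 22.6% of neutrophil-like cells held partners only and 25.2% neither set. In macrophage-like cells the state with immunoproteasome genes only made up 2.08% (0.0527 to 11.1) and both sets 83.3%, and in conventional dendritic-like cells 15.6% and 84.4%. The same state made up 33.3% of NK cell-like cells (16.5 to 54.0), 23.3% of B cell-like, 23.2% of T cell-like and 13.1% of monocyte-like cells, so it was not particular to neutrophil-like cells. At this depth a missing gene can be a missed one. Psmb10 was found in 9.85% of thinned neutrophil-like cells (6.59 to 14.0), against 20.2% to 68.8% in the other classes.

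The PA28 genes were, like Psmb8, highest in conventional dendritic-like cells. Psme1, the alpha subunit, was 399 CPM in conventional dendritic-like cells (386 to 412), against 183 CPM in all other cells, and 260 CPM in T cell-like, 242 in NK cell-like, 232 in monocyte-like, 197 in macrophage-like, 136 in B cell-like and 83.0 in neutrophil-like cells. Psme2, the beta subunit, was 476 CPM in conventional dendritic-like cells (462 to 490), against 240 CPM in all other cells, and 308, 307, 297, 281, 127 and 156 CPM in the other classes in the same order. Both were called higher in conventional dendritic-like cells and lower in B cell-like and neutrophil-like cells. For the sum of both genes the median cell had 509 CPM in conventional dendritic-like, 496 in NK cell-like and 479 in monocyte-like cells.

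Across the 7 classes, the log2 CPM of Psmb8 correlated most with Psme1 (Pearson r = 0.95) and Psme2 (0.93) among the 44 other proteasome genes with at least 50 counts. Its r with Psmb9 was 0.75 and with Psmb10 0.83, while Psmb10 was most like the structural subunit gene Psmb4 (0.96). These 7 points come from 1 library and share its depth and scaling. Within a class and across its cells, the Spearman rho of Psmb8 with Psmb9 was 0.62 over 32 conventional dendritic-like cells and 0.43 over 48 macrophage-like cells, and between -0.13 and 0.29 in the other 5 classes.

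The other activators did not share the PA28 order. Psme4, the nuclear activator PA200, was 93.2 CPM in NK cell-like, 51.4 in T cell-like, 47.1 in B cell-like, 28.6 in monocyte-like, 19.6 in neutrophil-like, 13.1 in macrophage-like and 7.23 in conventional dendritic-like cells. It was called higher in all 3 lymphoid classes and lower in neutrophil-like, macrophage-like and conventional dendritic-like cells. Its call in neutrophil-like cells ended when set relative to the median ratio of all genes (log2 ratio -0.37). In NK cell-like cells 49.3% of its counts lay in 1 cell, and without the cell that held most of them its log2 ratio was 0.56 in T cell-like cells and 0.46 in B cell-like cells, under the call. Psme3, the nuclear activator PA28 gamma, ranged from 18.99 CPM in neutrophil-like to 62.2 CPM in NK cell-like cells and was called higher in NK cell-like cells only, a call that ended (log2 ratio 0.57) without the cell that held most of its counts.

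**Figure D3:**
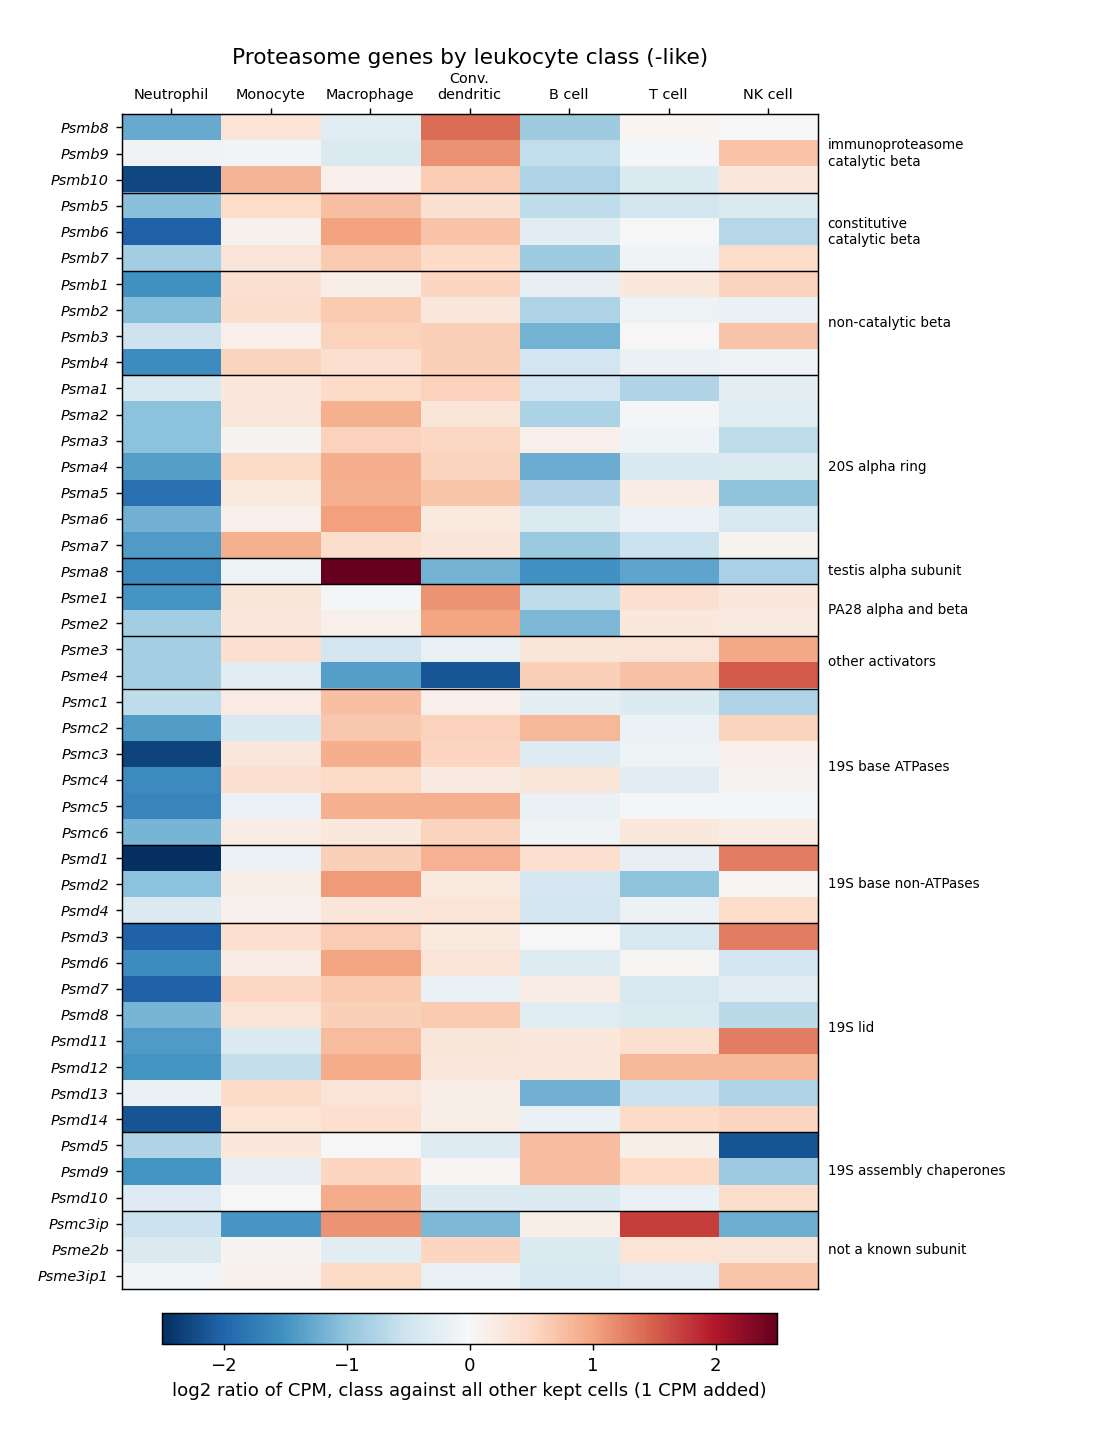
Log2 ratio of CPM of each class to all other kept cells for the 45 proteasome genes with at least 50 counts, grouped by role, with colours ending at -2.5 and 2.5. Red is higher and blue lower in the class. Nearly all roles are lower in neutrophil-like cells, most 20S and 19S rows are higher in macrophage-like cells, and in conventional dendritic-like cells Psmb8, Psmb9, Psme1 and Psme2 have the 4 largest ratios.

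Neutrophil-like cells had less of almost every proteasome gene. In them 36 of 45 genes were called lower, where 46.1% of all 18243 genes with at least 50 counts were, and 0 were called higher, where 14.2% of all genes were. The median log2 ratio of the 45 genes was -1.19 and that of all genes -0.47, and set relative to that median 26 of 45 were lower, against 30.9% of all genes. By role, the genes called lower were 6 of 7 in the alpha ring, 3 of 4 non-catalytic beta genes, all 3 constitutive catalytic genes, 2 of 3 immunoproteasome genes, all 6 ATPases of the 19S base, 7 of 8 lid genes and both PA28 genes. Relative to the median of all genes 10 of the calls ended. These were Psma2 (-0.56), Psma3 (-0.55), Psmb5 (-0.58), Psmb7 (-0.40), Psmc1 (-0.17), Psmd2 (-0.55), Psmd5 (-0.28), Psme2 (-0.40), Psme3 (-0.38) and Psme4 (-0.37). The Psmc1 call also ended with each cell weighted alike (-0.37).

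Psma7, an alpha-ring subunit, was 240 CPM in neutrophil-like cells, against 645 CPM in all other cells, and Psmb1 and Psmb4, structural beta subunits, were 127 and 87.7 CPM, against 362 and 263 CPM. Psmc3, an ATPase that unfolds substrates, was 18.5 CPM, against 95.6 CPM (log2 ratio -2.31). Psmd1, the large scaffold of the base, was 10.2 CPM, against 61.6 CPM (-2.48), and Psmd14, the deubiquitinase of the lid, 18.7 CPM, against 87.4 CPM (-2.17). Among the 9 genes not called, besides Psmb9, were Psma1 (116 CPM, against 151 CPM), Psmb3 (185 CPM, against 265 CPM), Psmd4 (93.4 CPM, against 120 CPM), Psmd10 (24.6 CPM, against 31.0 CPM) and Psmd13 (54.9 CPM, against 61.6 CPM).

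Macrophage-like cells stood at the other end. In them 23 of 45 genes were called higher, where 14.2% of all genes were, and 1, Psme4, was called lower, where 32% of all genes were. The median log2 ratio of the 45 genes was 0.59 and that of all genes -0.24. The genes called higher were 4 of 7 in the alpha ring, all 3 constitutive catalytic genes, 4 of 6 ATPases and 6 of 8 lid genes, but 0 of 3 immunoproteasome genes and 0 of 2 PA28 genes. For 7 of the genes called higher (Psmb2, Psmb7, Psmc2, Psmd1, Psmd3, Psmd7 and Psmd8) the call ended without the cell that held most of the counts, with log2 ratios between 0.42 and 0.57.

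Psma6, an alpha-ring subunit, was 326 CPM in macrophage-like cells, against 160 CPM in all other cells (log2 ratio 1.03). Psmd2, a scaffold of the base that binds ubiquitin-like domains, was 69.8 CPM, against 32.7 CPM (1.07), and the lid subunit gene Psmd6 was 92.7 CPM, against 46.0 CPM (0.99). The lid genes Psmd11 and Psmd12 were 83.9 and 87.6 CPM, against 48.1 and 45.4 CPM. By contrast Psmb8 was 217 CPM, against 264 CPM (-0.28), Psmb9 98.0 CPM, against 127 CPM (-0.37), and Psmb10 127 CPM, against 116 CPM (0.13), none of which was called. Psma8, with 11.3 CPM in macrophage-like cells against 1.14 CPM in all other cells, had 57.8% of its counts in that class in 1 cell.

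Set directly against the monocyte-like cells, the macrophage-like cells had 13 of 45 genes higher, where 17.7% of all genes were, and 2 lower (Psme3 and Psme4), where 19.7% were. The sum of the 3 constitutive catalytic genes was 614 CPM in macrophage-like and 433 CPM in monocyte-like cells (ratio interval 1.38 to 1.46), and that of the 3 immunoproteasome genes was 442 and 588 CPM (0.730 to 0.774). The constitutive and the immunoproteasome sets thus differed between these classes in opposite directions, by ratios that stayed under the 1.5 of a call.

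Conventional dendritic-like cells had 12 of 45 genes higher, where 12% of all genes were, and 3 lower, where 37.6% were. With median-of-ratios scaling 29 genes were higher, where 20.6% of all genes were, and scaled without mitochondrial and ribosomal protein genes 19. The 12 included all 3 immunoproteasome genes, both PA28 genes and 2 of 4 non-catalytic beta genes (Psmb3 and Psmb4), with 1 of 7 alpha-ring genes (Psma5, 146 CPM, against 89.7 CPM), 1 of 3 constitutive catalytic genes (Psmb6), 1 of 6 ATPases (Psmc5, 53.1 CPM, against 28.1 CPM), 1 of 3 other base genes (Psmd1) and 1 of 8 lid genes (Psmd8, 301 CPM, against 191 CPM). Without the cell that held most counts of the gene the calls of Psma5, Psmb3, Psmb4, Psmb6, Psmb10 and Psmd8 ended, with log2 ratios between 0.04 and 0.55, and that of Psmb10 also ended with each cell weighted alike (0.57). The largest log2 ratios were 1.39 for Psmb8, 1.14 for Psmb9, 1.12 for Psme1 and 0.99 for Psme2. Against the monocyte-like cells Psmb8 was 588 and 301 CPM (ratio interval 1.89 to 2.02), Psmb9 244 and 119 CPM (1.94 to 2.16) and Psmb10 173 and 167 CPM (0.978 to 1.09), and 8 of 45 genes were higher, where 16.5% of all genes were, and 2 lower, where 26.6% were.

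In monocyte-like cells few genes passed 1.5 times, a count that moved with the weighting and the scaling. Of 45 genes 2 were called higher, where 10.2% of all genes were, namely Psma7 (823 CPM, against 445 CPM) and Psmb10 (167 CPM, against 93.03 CPM). With each cell weighted alike 19 genes were higher, and with median-of-ratios scaling 9, where 14.9% of all genes were. Also 2 were called lower, where 29.1% of all genes were, namely Psmd12 (37.7 CPM, against 57.7 CPM), a call that ended under both of these settings, and the non-subunit Psmc3ip (0.0609 CPM, against 1.90 CPM). The median log2 ratio was 0.25 for the 45 genes and -0.18 for all genes.

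In B cell-like cells 15 of 45 genes were called lower, where 26.6% of all genes were, and 4 higher, where 28.1% were. The lower ones held all 3 immunoproteasome and both PA28 genes, 4 of 7 alpha-ring genes and 2 of 4 non-catalytic beta genes, but 0 of 6 ATPases and 1 of 8 lid genes (Psmd13). Psme2 was 127 CPM, against 280 CPM in all other cells (log2 ratio -1.13), Psma4 60.0 CPM, against 142 CPM (-1.23), and Psmb3 118 CPM, against 268 CPM (-1.17). The higher ones were Psme4, the ATPase gene Psmc2 (97.1 CPM, against 53.9 CPM) and Psmd5 and Psmd9, chaperones that help assemble the 19S base (20.1 and 42.1 CPM, against 11.3 and 24.2 CPM). The calls of Psmd5 (log2 ratio 0.53) and Psmd9 (0.54) ended, like that of Psme4, without the cell that held most counts of the gene. B cell-like cells also had the highest median mitochondrial share of the named classes, 3.30%, and scaled without mitochondrial and ribosomal protein genes 8 genes were lower in place of 15. Among the calls that ended in this way were those of Psmb9 (-0.39), Psmb10 (-0.55) and Psme1 (-0.41), and those of Psmb9 (-0.54) and Psme1 (-0.43) also ended with each cell weighted alike, which left 9 genes lower.

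T cell-like cells had 3 of 45 genes higher, where 25.2% of all genes were, and 3 lower, where 28.7% were. Scaled without mitochondrial and ribosomal protein genes 12 were higher, and without the cell with most proteasome counts in each class 7 were lower. The ones with at least 20 CPM in any class were Psmd12 (85.4 CPM, against 47.4 CPM) and Psme4 among the higher, and Psma1 (89.2 CPM, against 151 CPM) and Psmd2 (19.2 CPM, against 39.7 CPM) among the lower. The Psma1 call ended with each cell weighted alike (log2 ratio -0.31) and when scaled without mitochondrial and ribosomal protein genes (-0.38). Against B cell-like cells, T cell-like cells had 11 of 45 genes higher, where 20% of all genes were, and 1 lower (Psmc2), where 24.7% were. Psme2 was 308 CPM in T cell-like and 127 CPM in B cell-like cells (ratio interval 2.28 to 2.58), Psme1 260 and 136 CPM (1.80 to 2.04), and Psmb8 265 and 146 CPM (1.71 to 1.93).

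NK cell-like cells, only 27 in number, had 9 of 45 genes higher, where 24% of all genes were, and 10 lower, where 41.1% were. With each cell weighted alike 16 genes were higher. With median-of-ratios scaling 15 were higher and 4 lower, where 30.9% and 32.1% of all genes were. Psmb9 was 200 CPM, against 121 CPM in all other cells, and was the only catalytic gene called higher, while its constitutive partner Psmb6 was 89.8 CPM, against 149 CPM, and was called lower. The lid genes Psmd3 and Psmd11 were 68.4 and 127 CPM, against 27.5 and 51.5 CPM, and the base gene Psmd1 was 124 CPM, against 50.4 CPM. Without the cell that held most of its counts the log2 ratio of Psmb9 was 0.51, which ends the call. The Psmb6 call ended with each cell weighted alike (-0.27) and with median-of-ratios scaling (-0.45). Against T cell-like cells, NK cell-like cells had 10 of 45 genes higher, where 23.6% of all genes were, and 5 lower, where 31.9% were, with Psmb9 at 200 and 120 CPM (ratio interval 1.48 to 1.86) and Psmb8 at 259 and 265 CPM (0.889 to 1.08).

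Set against the structural core, conventional dendritic-like cells still had the most immunoproteasome counts of the named classes, but the order of the other classes differed from that by CPM. Per 100 counts of the 11 non-catalytic 20S genes (Psma1 to Psma7 and Psmb1 to Psmb4), the 3 immunoproteasome genes had 29.6 in conventional dendritic-like cells (29.0 to 30.3), 23.1 in NK cell-like, 20.8 in neutrophil-like, 20.7 in T cell-like, 18.9 in monocyte-like, 17.0 in B cell-like and 12.3 in macrophage-like cells (11.9 to 12.6). Neutrophil-like cells, the lowest class by the summed CPM of these genes (266 CPM), thus stood beside T cell-like cells, and macrophage-like cells (442 CPM) came last. The unnamed cells had 38.6 (35.6 to 42.0). The 3 constitutive catalytic genes moved less, between 13.3 in NK cell-like and 17.0 in macrophage-like cells. PA28 ran from 13.3 in macrophage-like to 25.8 in conventional dendritic-like cells, with 24.6 in T cell-like cells.

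The 17 genes of the 19S base and lid had 61.9 per 100 structural 20S counts in B cell-like cells (60.5 to 63.2), the highest class, 51.8 in NK cell-like, 47.1 in T cell-like, 46.5 in macrophage-like, 44.0 in conventional dendritic-like, 42.4 in neutrophil-like and 40.0 in monocyte-like cells. The lower 20S counts of B cell-like cells were thus not matched by the 19S counts. The summed 19S level was 1091 CPM in B cell-like and 1088 CPM in T cell-like cells (ratio interval, T cell-like over B cell-like, 0.972 to 1.02), while the structural 20S sum was 1764 and 2311 CPM in the same classes.

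**Figure D4:**
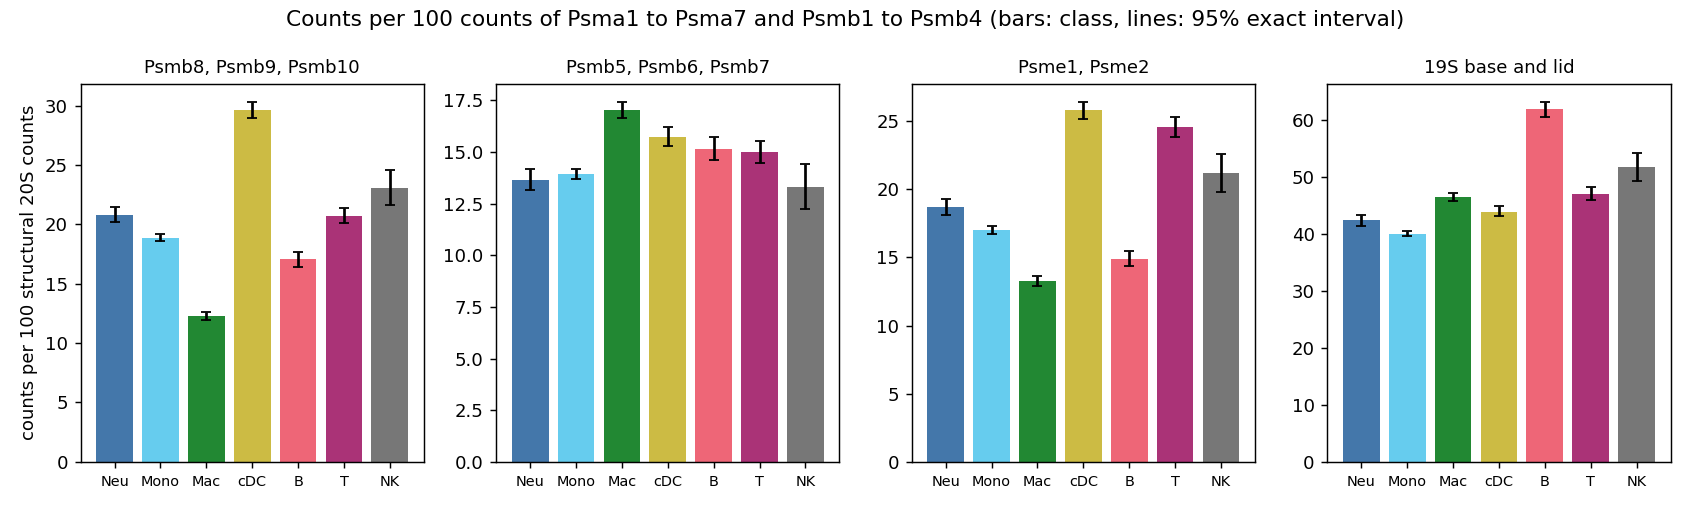
Counts of 4 sets of proteasome genes per 100 counts of the 11 non-catalytic 20S genes in each leukocyte class (bars, linear axes from 0), with exact 95% intervals. The immunoproteasome set runs from 12.3 in macrophage-like (Mac) to 29.6 in conventional dendritic-like cells (cDC), and the 19S set is highest in B cell-like cells, at 61.9.

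Both large myeloid classes held 2 clusters. In the 114 neutrophil-like cells of a cluster whose leading genes included Icam1 and Ccl3 (Icam1-high), 17 of 45 genes were higher than in the other 160 neutrophil-like cells, where 27.3% of all genes were, and 0 were lower, where 13.3% of all genes were. Of 10 neutrophil markers the Icam1-high cluster had 7 at the level used for naming and the other cluster 10. Their sum was 44398 CPM in Icam1-high and 136890 CPM in the other cells, and the part of this in the ratios was not tested. Psmb2, a structural subunit, was 161 CPM in Icam1-high and 62.8 CPM in the other cells (ratio interval 2.35 to 2.83), Psmb10 41.8 and 18.7 CPM (1.87 to 2.67), Psmd2 33.8 and 11.2 CPM (2.42 to 3.74) and Psmd7, a lid subunit, 29.3 and 7.71 CPM (2.95 to 4.91). Psmb8 did not differ in the same way, with 119 and 122 CPM (0.893 to 1.06), and Psmb9 was 92.6 and 133 CPM (0.635 to 0.761).

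The share of the immunoproteasome gene therefore differed by pair between these clusters. It was 39.2% in Icam1-high and 19.01% in the other cells in the beta2 pair, but 68.4% and 76.3% in the beta1 pair and 64.8% and 68.9% in the beta5 pair. Per 100 structural 20S counts the 3 immunoproteasome genes had 16.2 in Icam1-high and 24.996 in the other cells. The larger differences of Psmd1, Psmd9 and Psme4 between the clusters rest on few cells, since 1 Icam1-high cell held 57.0%, 52.9% and 60.3% of their counts in that cluster.

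The monocyte-like class held 104 cells with the classical markers Ly6c2 and Vcan (Ly6c2-high) and 79 with Ace and Treml4, known from patrolling monocytes (Ace-high). In the Ly6c2-high cells 8 of 45 genes were higher than in the Ace-high cells, where 18.5% of all genes were, and 4 were lower, where 24.5% were. Psma7 was 921 CPM in Ly6c2-high and 558 CPM in Ace-high cells (ratio interval 1.60 to 1.70), Psma4 185 and 110 CPM (1.57 to 1.81) and Psmb6 171 and 112 CPM (1.42 to 1.63), while the lid genes Psmd7 and Psmd11 were 62.3 and 36.9 CPM in Ly6c2-high and 107 and 64.5 CPM in Ace-high cells. Of the 11 structural 20S genes 4 were called higher and 0 lower in the Ly6c2-high cells, and of 8 lid genes 2 (Psmd6 and Psmd13) were called higher and 3 (Psmd3, Psmd7 and Psmd11) lower. Psmb8 (312 and 271 CPM) and Psmb9 (121 and 116 CPM) stayed within the 1.5 times of a call. Per 100 structural 20S counts the immunoproteasome set had 17.9 in Ly6c2-high and 22.6 in Ace-high cells, PA28 15.3 and 23.7, and the 19S base and lid 37.2 and 50.9. Median counts per cell were 225641 in Ly6c2-high and 106033 in Ace-high cells, and the part of that difference in these values was not tested. Of 8 markers of blood vascular endothelium, 3 (Pecam1, Flt1 and Fabp4) reached the level used for naming in Ace-high cells and 0 in Ly6c2-high cells. Their sum over all 8 was 35.5 CPM in Ly6c2-high and 356 CPM in Ace-high cells, with the endothelial cadherin gene Cdh5 and the receptor gene Kdr under 1 CPM in both, and the part of this in the comparison was not tested.

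**Figure D5:**
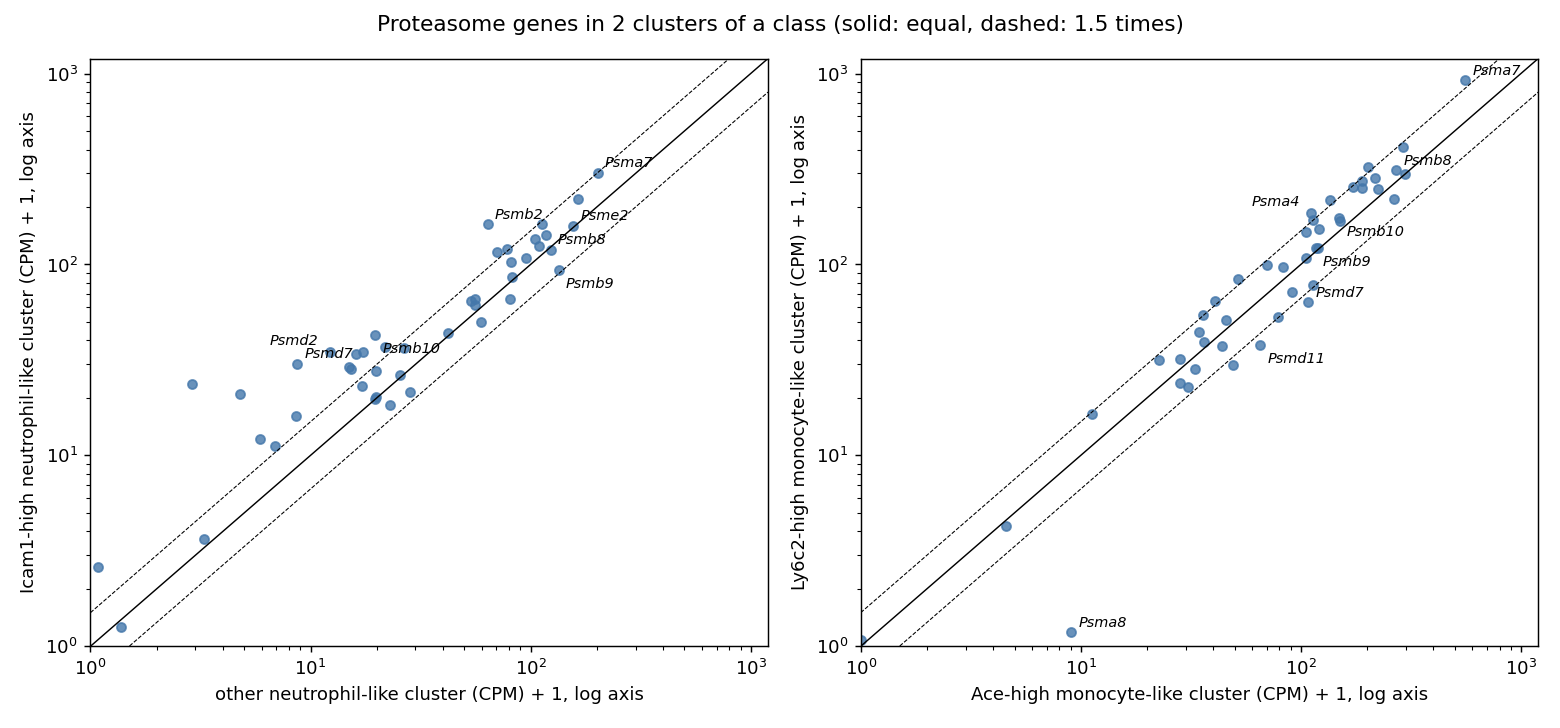
CPM + 1 of 45 proteasome genes (log axes) in the 2 clusters of the neutrophil-like class (left; Icam1-high on the vertical axis, the other cluster on the horizontal) and of the monocyte-like class (right; Ly6c2-high on the vertical axis, Ace-high on the horizontal). Points over the upper dashed line are at least 1.5 times higher in the cluster on the vertical axis; 17 genes are in the left panel and 8 in the right.

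By CPM, lymphoid and myeloid classes differed in a smaller share of the proteasome genes than of all genes, in both directions. In the 289 lymphoid cells 4 of 45 genes were higher than in the 537 myeloid cells, where 35.6% of all genes were, and 7 were lower, where 20.2% were. The median log2 ratio was -0.25 for the 45 genes and 0.20 for all genes. Set relative to the latter, 2 of 45 were higher, where 28.9% of all genes were, and 15 lower, where 24.8% were. The smaller share of lower genes thus depended on the scaling. Psme4 was 52.7 CPM in lymphoid and 20.8 CPM in myeloid cells (ratio interval 2.35 to 2.73), and Psma7 was 376 and 642 CPM (0.572 to 0.598). Since the myeloid classes themselves ranged from the lowest to the highest levels, this comparison mixes unlike classes.

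Of 28 further genes of the pathway, all with at least 50 counts, conventional dendritic-like cells had 9 higher and 3 lower, against 12% and 37.6% of all genes. The higher ones held the peptide transporter genes Tap1 (90.8 CPM in conventional dendritic-like cells) and Tap2 (61.7 CPM), the loading factor gene Tapbp (186 CPM) and Pomp (377 CPM), the chaperone that matures the core. Tap1 shares its start region with Psmb9 and was 46.4 CPM in monocyte-like, 45.0 in T cell-like, 42.8 in B cell-like, 40.0 in macrophage-like, 37.4 in neutrophil-like and 23.0 in NK cell-like cells.

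Neutrophil-like cells had 3 of the 28 genes higher and 15 lower, against 14.2% and 46.1% of all genes. The higher ones were Nfe2l2, a stress factor that binds the antioxidant element (956 CPM in neutrophil-like cells), Irf1, an interferon-response factor (191 CPM), and Ngly1, an enzyme known to activate Nfe2l1 (30.3 CPM). Nfe2l1 itself, known as the main activator of constitutive proteasome genes, was 8.23 CPM in neutrophil-like cells and 8.25 CPM in monocyte-like cells, both called lower, against 25.5 CPM in macrophage-like and 32.3 to 39.3 CPM in the lymphoid classes. Pomp was 101 CPM, the chaperone gene Psmg4 10.5 CPM and the peptide-loading chaperone gene Pdia3 66.8 CPM in neutrophil-like cells, the lowest values of the 7 classes for all 3.

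Macrophage-like cells had 9 of the 28 genes higher and 4 lower, against 14.2% and 32% of all genes. The higher ones held the core chaperone gene Psmg1 (26.8 CPM) and the endoplasmic chaperone genes Calr (488 CPM), Canx (244 CPM) and Pdia3 (532 CPM), and the lower ones Tap2 (12.9 CPM) and Nlrc5 (5.83 CPM), a known activator of MHC class I genes. Monocyte-like cells had 5 higher and 6 lower (10.2% and 29.1% of all genes) and B cell-like cells 3 and 7 (28.1% and 26.6%). T cell-like cells had 5 and 4 (25.2% and 28.7%) and NK cell-like cells 6 and 10 (24% and 41.1%). Irf8 spanned the widest range, with 2849 CPM in NK cell-like, 395 in B cell-like and 3.02 in neutrophil-like cells.

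Some values carry further doubt. Most values above 0 were fractions for Psmd13 (13.1% whole), Psme2b (6.28%), Psmb5, Psma4 (37.1%), Psma3 (38.6%) and Psmd1 (47.4%), so these counts are estimates whose splitting is not described in the sources used here, and 60.2% were whole for Psme2, of which Psme2b is a near copy. By a mouse annotation of the GRCm38 build, Psmb8 and Psmb10 overlap antisense transcripts over 2139 and 2710 bases, Psmb9 overlaps Tap1 over 212 bases and Psmb7 overlaps Nek6 over 6571 bases on the opposite strand. No source used here states whether counting used the strand, so reads of these pairs may not have been told apart.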

How the data were processed

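The mice, tags and libraries are described above. The submitters' processing notes name the GRCm39 build and the tools STAR, STARsolo 2.7.10b, cutadapt 4.1 and R 4.3.1, without a role. The authors deposited unnormalized estimated counts per gene and cell, 69.8% of whose values above 0 are whole, and whole hashtag counts per barcode, used here only to check tag names. No source used here says if molecules or reads were counted.

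Cells with at least 500 counts, 200 genes and at most 25% mitochondrial counts were kept, and cells named doublet that passed stayed in. No doublet caller was run. The proteasome genes and the 28 pathway genes were left out of clustering (scanpy 1.11.5; 2000 variable genes, 30 components, 15 neighbours, Leiden resolution 1, seed 0). A cluster was named from at least 3 markers of a list at 50 CPM and 2 times the level of other cells. Members, lists and roles were chosen with earlier results of these data known. The text names the catalytic and PA28 genes always, and other members with at least 20 CPM in any class and a call in a class of at least 50 cells. Counts were summed per class and scaled to CPM. Poisson, conditional binomial and Clopper-Pearson intervals (scipy 1.17.1) cover counting error only. The ratio calculation was checked on simulated counts that held counting error only. They had no spread between cells, so the check says nothing of the intervals where cells differ. Promoter sequences are those of RefSeq (GRCm38.p6), matched by symbol, and no coordinate was converted between builds.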

Additional observations from a re-analysis of the deposited data

How the results depend on the processing

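No paired analysis was possible because all cells come from 1 transcriptome library and no result comes from a test. Of 168 recomputed counts of called genes, 142 stayed within 1.5 times, and of 49 recomputed immunoproteasome shares over all 3 pairs 41 stayed within the counting interval. No called log2 ratio of a named gene changed sign, and 485 of 550 recomputed ones stayed past 1.5 times. By the counting interval, however, only 599 of the 1365 recomputed log2 ratios of named genes, called or not, stayed within it, and 766 moved out. With 5 CPM added, 0 genes were lower in monocyte-like and 1 in conventional dendritic-like cells. At a fold of 2, the genes higher were 5 in macrophage-like, 4 in NK cell-like, 3 in conventional dendritic-like and 1 in T cell-like cells and 0 in both B cell-like and monocyte-like cells, and the genes lower were 5 in B cell-like, 3 in NK cell-like and 1 in monocyte-like cells. With at least 50000 counts per cell the B cell-like share was 54.8%. With at most 10% mitochondrial counts, 2 genes were lower in macrophage-like and 5 in T cell-like cells, whose share was 56.3%. With each cell weighted alike, 19 genes were higher in monocyte-like and 16 in NK cell-like cells, 9 were lower in B cell-like cells, and the shares were 59.0% in monocyte-like, 40.7% in macrophage-like, 63.8% in conventional dendritic-like and 51.4% in B cell-like cells. The NK cell-like share was then 63.9%, just over the conventional dendritic-like one. Median-of-ratios scaling gave 29 genes higher in conventional dendritic-like, 15 in NK cell-like and 9 in monocyte-like cells, where 20.6%, 30.9% and 14.9% of all genes were. It gave 4 lower in NK cell-like and 1 in monocyte-like cells, where 32.1% and 22.7% of all genes were. For the other settings the share of all genes was not taken. Scaled without mitochondrial and ribosomal protein genes, 19 were higher in conventional dendritic-like and 12 in T cell-like cells, and 8 lower in B cell-like cells. Without the cell with most proteasome counts in each class, a setting chosen after seeing the data, 7 genes were lower in T cell-like and 1 in monocyte-like cells, and the shares were 59.2% and 57.0%. For each of these the cause was not tested beyond what the setting itself changes. Leaving out the cell with most counts of a gene took 20 called ratios under 1.5 times, 7 of them in macrophage-like and 6 in conventional dendritic-like cells. The shares of single pairs were also recomputed without the cell with most counts of either gene, a setting chosen after seeing the data, and some of its effects on the order of the classes stand beside them.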
